A study of Mus musculus with 22 samples.

Results

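The ephrins, netrins and slits are extracellular guidance cues, and the gene group described here holds these cues with their Eph, DCC, UNC5 and Robo receptors. Its members are fixed by a list of gene names, with no threshold on a measured value, and number 39, of which 38 were matched to one of the 23119 genes in the count table. Ntn3 was not matched by its identifier and is given no value. The 38 are 5 ephrin-A and 3 ephrin-B ligands, 9 EphA and 5 EphB receptors, 2 netrins, 2 netrin-G proteins, 6 netrin receptors, 3 slits and 3 Robo receptors.

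RNA was sequenced from bulk striatum of adult male C57BL/6J mice. One group of mice self-administered the opioid oxycodone at 0.25 mg/kg per infusion for 4 h a day on 14 days, and yoked controls infused with saline for the same hours and days formed the other group. Oxycodone and saline gave 6 libraries each from ventral striatum and 5 each from dorsal striatum, 22 in all. None of the labels names a transgene or a mutant allele, and none gives an age beyond adult. The self-administration protocol limits the model: the controls differ from the oxycodone mice both in the drug and in control over its delivery. No label says that each library came from a different mouse, and dorsal replicates 2 and 3 of each treatment share a title number and may come from 1 mouse, so p-values here measure the spread between libraries, part of which may be technical. Library totals ran from 8408829 to 11000345 counts in ventral and from 11314079 to 21921963 in dorsal striatum. Despite their lower totals, ventral libraries had more genes with a count, 16977 to 17365 against 15622 to 16817 in dorsal ones.

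Ephrins are bound to the cell surface, the A class by a lipid anchor and the B class by a transmembrane segment, and Eph receptor tyrosine kinases on a neighbouring cell respond to them, usually by retraction. Netrin-1 is secreted and attracts axons through DCC or repels them through UNC5 receptors, while netrin-G proteins stay on the membrane and organise synapses. Slits are secreted repellents read by Robo receptors. In striatum the families are known for guiding cortical, thalamic and dopaminergic axons and for placing striatal neurons in their compartments, and many of them stay expressed in the adult at synapses.

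Both ventral libraries with replicate number 6 stood apart by their cell markers. In the other 10 ventral libraries, 8 markers of ventral striatum averaged 5.46 to 6.07 log2 CPM (counts scaled to a common library total) and 7 markers of dorsal striatum 6.64 to 6.87. The 10 dorsal libraries gave 2.99 to 4.23 and 7.95 to 8.41 for the same lists, so these 20 libraries matched their regional labels. Oxycodone ventral replicate 6 gave 3.63 for the ventral and 7.98 for the dorsal list, which places it in the dorsal ranges. Saline ventral replicate 6 was low for markers of D1 medium spiny neurons, at 3.03 against 5.67 to 6.02 in the other 10 ventral libraries, and high for glutamatergic and cortical markers, at 6.08 against 2.20 to 4.26. It was also low for D2 markers, at 2.26 against 6.19 to 6.84. At 2.45 for the ventral and 5.49 for the dorsal list, it lay below the ranges of both regions. Counts of guidance genes called are therefore given with and without these 2. Values of single genes use all libraries unless stated otherwise. Region and sequencing run cannot be told apart, since the labels give lanes for the ventral libraries only.

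**Figure D1:**
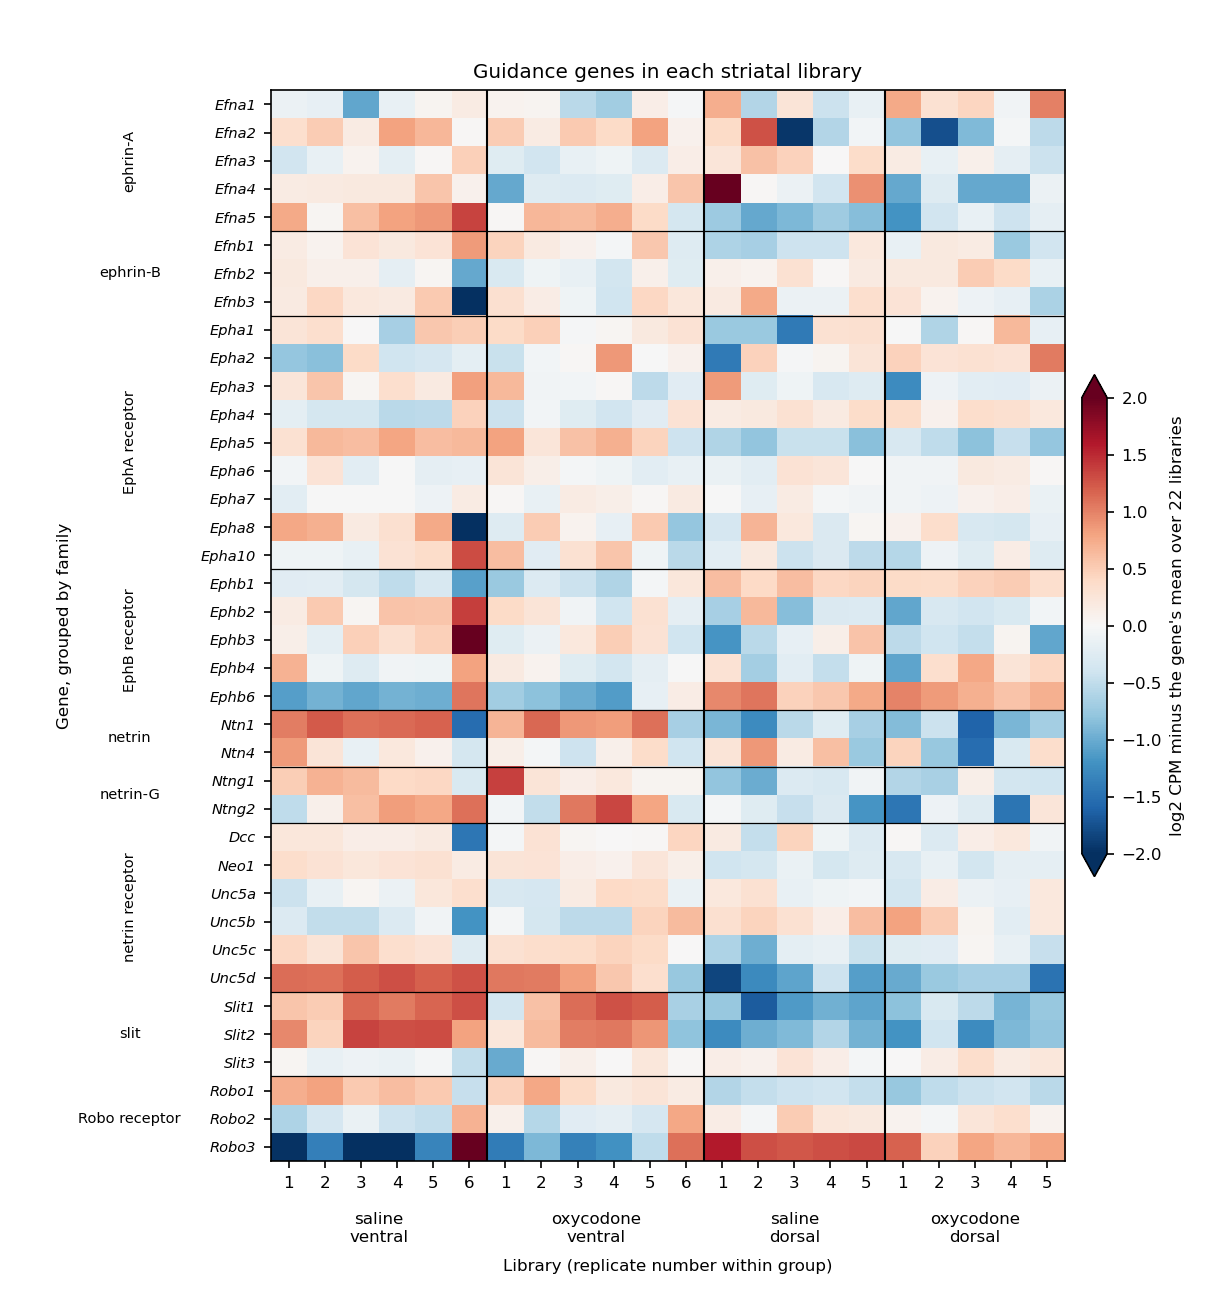
Rows are the 38 guidance genes by family and columns the 22 libraries by group; colour is log2 CPM minus the gene's mean over the 22 libraries, so red is above and blue below that mean. Slit1, Slit2, Unc5d and Ntn1 are mostly red in ventral and blue in dorsal libraries, Ephb6 and Robo3 mostly the reverse, and the ventral libraries numbered 6 depart from their group for many genes, among them Ntn1 and Robo3.

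Levels were compared between genes after division by the length of all their exons together (CPM per kb, mean of the 4 groups). Epha4, an Eph receptor that binds ephrins of both classes, was the highest at 41.7 CPM per kb. Ephb6, an Eph receptor without kinase activity, followed at 30.8, then Epha6 at 25.6, Slit3 at 24.5 and Neo1, the DCC relative neogenin, at 21.7. Receptors thus held 4 of these 5 places, with Slit3 the highest ligand. Among ephrins Efnb3, a transmembrane ligand of EphB receptors and Epha4, was the highest at 12.1, and among Robo receptors Robo2 at 17.5. Ntng2 led the netrins and netrin-Gs with 3.03, ahead of Ntn1 at 2.71. At the lower end stood Epha1 at 0.579 and Efna4 at 0.160. Efna4 lay between 0 and 2.12 CPM and was removed by the filter on low counts, and the other 37 were tested in every comparison. With the median transcript length in place of all exons, Slit3 at 172 and Ephb6 at 169 came before Epha4 at 96.9, so the order at the top rests on the length used. So do the leaders of 3 families named above: by median transcript Efna3 (28.8) came before Efnb3 (12.1), Robo1 (93.8) before Robo2 (78.0) and Ntng1 (8.49) before Ntng2 (7.58). Of the exon bases of Efna3, 14.1% overlap a transcript on the opposite strand, and 14.0% of those of Ntng2 overlap a gene on the same strand. The strand setting of the counting is not given in the sources used here. On GRCm38, Slit1 lies at chr19:41600257-41743665, Ntn1 at chr11:68209364-68400823, Unc5d at chr8:28646717-29219636 and Robo3 at chr9:37415669-37433246, all on the minus strand. Robo1 and Robo2 are neighbours on chromosome 16, 845.7 kb apart, and share no exon bases.

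**Figure D2:**
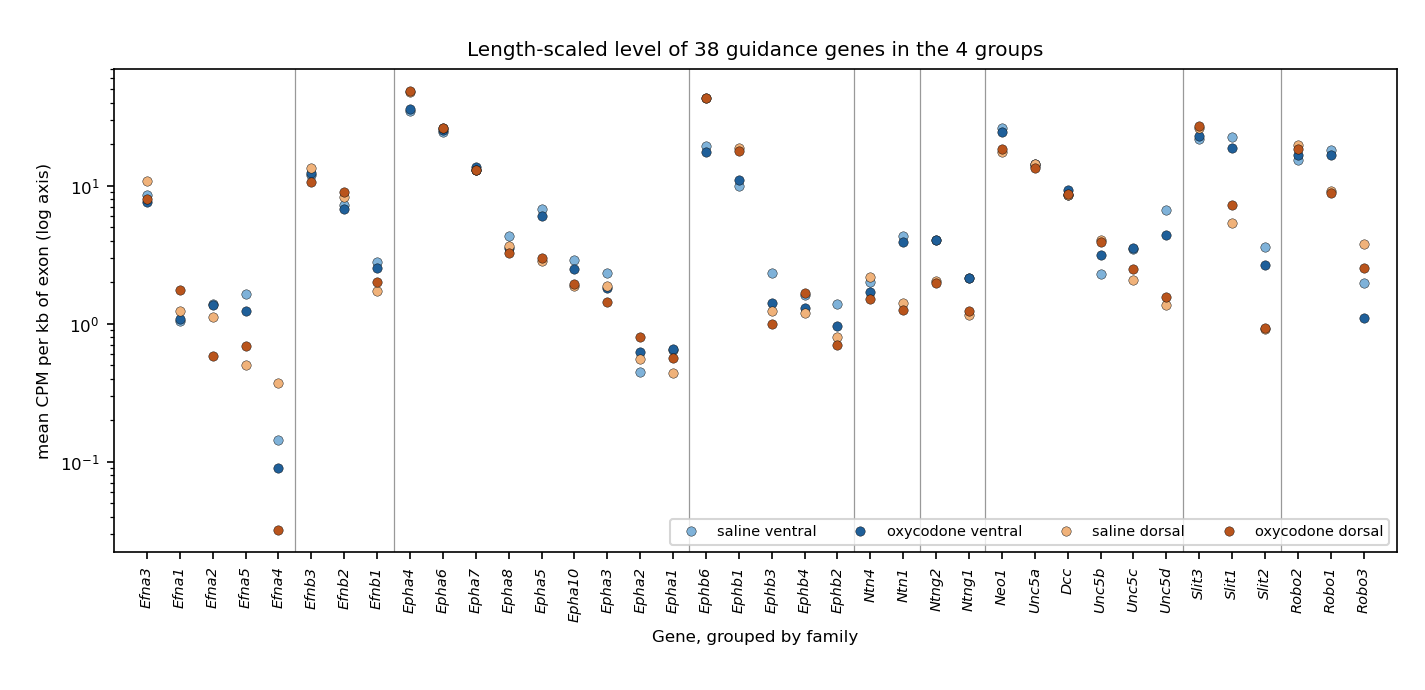
Each dot is the mean level of 1 guidance gene in 1 group, in CPM per kb of exon on a log axis, with genes sorted within families separated by lines. Levels span from Efna4 at the bottom to Epha4 at the top, and the dorsal and ventral dots of Slit1, Slit2, Unc5d, Ephb6 and Robo1 separate by region more than by treatment.

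The first question was how the guidance genes differed between dorsal and ventral striatum without drug. In the saline libraries 18 of 37 guidance genes differed (48.6%), against 45.8% of all genes tested. The share is near that of all genes, so the number itself is no feature of the group. Of the 18, 5 were higher in dorsal striatum (all genes 23.6%) and 13 were higher in ventral striatum (all genes 22.3%). The ranges of the dorsal and ventral saline libraries were disjoint for 8 guidance genes (all genes 30.4%), 2 with dorsal above (all genes 15.8%) and 6 with dorsal below (all genes 14.6%). The median log2 difference was -0.30 over the guidance genes and -0.01 over all genes tested.

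The oxycodone libraries allow the same comparison in samples that the saline one does not use. There 17 of 37 guidance genes differed between regions (45.9%, all genes 47.2%), 5 higher in dorsal (all genes 23.5%) and 12 higher in ventral striatum (all genes 23.7%). Ranges were disjoint for 5 (all genes 28.0%), 2 with dorsal above (all genes 14.5%) and 3 with dorsal below (all genes 13.5%), and the median log2 difference was -0.22 against -0.01 over all genes. In both treatments 14 guidance genes were called in the same direction, 3 higher in dorsal and 11 higher in ventral striatum, and none in opposite directions. These 14 are 77.8% of the saline calls and 82.4% of the oxycodone calls, beside 79.3% and 77.0% over all genes. The sign of the difference was the same under both treatments for 32 of 37, beside 12287 of 14208 over all genes, so it is no feature of the group.

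Slits, the secreted repellents, were divided by region. Slit2 measured a lowest, median and highest 59.4, 96.3 and 112 CPM in the 6 saline ventral libraries, against 18.2, 22.2, 23.7, 29.2 and 22.8 CPM in saline dorsal replicates 1 to 5. Oxycodone libraries held 24.9, 74.5 and 91.6 CPM in ventral and 19.0, 33.3, 18.2, 23.4 and 25.3 CPM in dorsal striatum. All ventral libraries lay above all dorsal ones with saline, and with oxycodone all but replicate 6, at 24.9 CPM, did. Slit2 was 3.91-fold higher in ventral striatum with saline (log2 dorsal minus ventral -1.97, SE 0.17, adjusted p = 7.04e-07 by edgeR) and 2.86-fold higher with oxycodone (-1.51, SE 0.31, adjusted p = 0.002).

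Slit1 followed the same direction. Its lowest, median and highest values in saline ventral libraries were 95.4, 144 and 165 CPM, and the saline dorsal libraries held 39.9, 21.1, 30.7, 34.5 and 32.1 CPM. In oxycodone libraries they were 43.0, 124 and 163 CPM ventrally and 38.1, 54.3, 46.9, 35.3 and 39.7 CPM dorsally. Groups were disjoint with saline and overlapped with oxycodone, where ventral replicates 1 and 6 were low at 52.3 and 43.0 CPM. The log2 difference was -2.06 (SE 0.18, adjusted p = 1.03e-06) with saline and -1.38 (SE 0.36, adjusted p = 0.0106) with oxycodone. Slit3, the most abundant slit per length, measured 132 ± 15.7 CPM (SD, n = 6) in saline ventral and 158 ± 11.9 (n = 5) in saline dorsal libraries. It was higher in dorsal striatum with saline by 0.27 (SE 0.09, adjusted p = 0.0254), a call that was lost without saline dorsal replicate 3 (adjusted p = 0.0614). With oxycodone its difference was 0.22 (SE 0.17, adjusted p = 0.293).

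Among the slit receptors, Robo1 was higher in ventral striatum. It measured 153, 313 and 365 CPM (lowest, median, highest) in saline ventral and 141, 150, 158, 161 and 150 CPM in saline dorsal libraries. Under oxycodone the ventral values were 235, 263 and 360 CPM and the dorsal values 124, 148, 156, 161 and 145 CPM. The oxycodone groups were disjoint, and with saline only ventral replicate 6, the 153 CPM library, reached into the dorsal range. Robo1 differed by -0.96 (SE 0.17, adjusted p = 0.000493) with saline and -0.92 (SE 0.11, adjusted p = 3.79e-06) with oxycodone.

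Robo3, a Robo family receptor known for letting commissural axons cross the midline, showed the widest regional gap once the libraries numbered 6 were set aside. In saline ventral replicates 1 to 6 it measured 2.42, 3.75, 1.74, 2.40, 3.88 and 66.8 CPM, and in the saline dorsal libraries 30.3, 24.5, 23.9, 24.7 and 25.3 CPM. Oxycodone ventral replicates 1 to 6 gave 3.69, 5.25, 3.80, 4.22, 6.94 and 21.7 CPM, and the oxycodone dorsal libraries 22.7, 13.8, 17.4, 15.8 and 17.3 CPM. The 10 ventral libraries numbered 1 to 5 lay at 1.74 to 6.94 CPM and the 10 dorsal libraries at 13.8 to 30.3 CPM, with no overlap, while each ventral replicate 6 stood above every other ventral library. With all libraries the difference was 0.91 (SE 0.93, adjusted p = 0.453) with saline and 1.18 (SE 0.43, adjusted p = 0.0406) with oxycodone, a call kept in 2 of 11 fits that leave out 1 library. Without the sixth libraries Robo3 was 9.22-fold higher in dorsal striatum with saline (log2 3.20, SE 0.20, adjusted p = 1.3e-09) and 3.64-fold higher with oxycodone (1.86, SE 0.20, adjusted p = 1.07e-06).

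Robo2 measured 186, 220 and 465 CPM (lowest, median, highest) in saline ventral libraries and 317, 277, 405, 333 and 328 CPM in saline dorsal ones. In oxycodone libraries the ventral values were 193, 248 and 488 CPM and the dorsal values 299, 278, 338, 360 and 300 CPM. Its highest ventral value was replicate 6 under both treatments, and no regional call was made with all libraries (0.36, adjusted p = 0.198 with saline, and 0.13, adjusted p = 0.627 with oxycodone). Without the sixth libraries it was higher in dorsal striatum, by 0.63 (SE 0.10, adjusted p = 3.16e-05) and 0.37 (SE 0.11, adjusted p = 0.00826).

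Ntn1, the secreted netrin that binds DCC and UNC5 receptors, measured 4.83, 31.1 and 33.5 CPM (lowest, median, highest) in saline ventral and 7.50, 5.88, 9.72, 12.1 and 8.97 CPM in saline dorsal libraries. With oxycodone it measured 8.94, 26.0 and 31.6 CPM in ventral and 7.70, 10.6, 4.58, 7.48 and 8.82 CPM in dorsal libraries. The lowest ventral value was replicate 6 in each treatment, and the other 10 ventral libraries, at 22.9 to 33.5 CPM, lay above all 10 dorsal ones. Ntn1 was 3.02-fold higher in ventral striatum with saline (log2 -1.59, SE 0.39, adjusted p = 0.00525) and 3.13-fold higher with oxycodone (-1.65, SE 0.28, adjusted p = 0.000321). Without saline ventral replicate 6 the saline difference was -1.79 (SE 0.16, adjusted p = 9.47e-08 by edgeR). Ntn4, a laminin-binding netrin, was called in neither (0.13, adjusted p = 0.743, and -0.18, adjusted p = 0.65).

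Both netrin-G genes, whose proteins bind netrin-G ligands across the synapse, were lower in dorsal striatum with saline. Ntng1 measured 10.5, 18.0 and 21.2 CPM in saline ventral and 7.50, 6.49, 10.8, 10.4 and 12.4 CPM in saline dorsal libraries, where only ventral replicate 6 fell within the dorsal range. In oxycodone libraries it measured 13.6, 14.7 and 34.0 CPM ventrally and 8.64, 8.26, 14.2, 10.1 and 9.88 CPM dorsally. Its difference was -0.86 (SE 0.21, adjusted p = 0.0033) and -0.81 (SE 0.24, adjusted p = 0.0122). Ntng2 measured 7.56, 17.5 and 23.4 CPM in saline ventral and 4.69 to 10.5 CPM in saline dorsal libraries, with a difference of -0.98 (SE 0.27, adjusted p = 0.00875). With oxycodone it spread from 7.65 to 27.7 CPM in ventral and from 3.85 to 12.8 CPM in dorsal libraries and was not called (-1.03, SE 0.42, adjusted p = 0.0626), except in 3 of 11 fits that leave out 1 library, among them that without ventral replicate 6 (-1.14, adjusted p = 0.0469).

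Of the 6 netrin receptors, Unc5d, a repellent UNC5 receptor that also binds FLRT proteins, had the largest regional difference of the guidance genes with saline. It measured 56.8, 61.2 and 64.7 CPM (lowest, median, highest) in saline ventral and 7.32, 10.9, 12.7, 19.8 and 12.3 CPM in saline dorsal libraries. Under oxycodone the values were 15.6, 42.6 and 55.0 CPM in ventral and 13.1, 15.8, 16.7, 16.6 and 9.46 CPM in dorsal libraries. The saline groups were disjoint, and with oxycodone only ventral replicate 6, the 15.6 CPM library, lay in the dorsal range. Unc5d was 4.77-fold higher in ventral striatum with saline (log2 -2.25, SE 0.19, adjusted p = 4.6e-07) and 2.86-fold higher with oxycodone (-1.52, SE 0.28, adjusted p = 0.000732).

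Unc5c, another UNC5 receptor, measured 45.7, 67.4 and 80.0 CPM in saline ventral and 35.5, 27.5, 47.5, 49.2 and 40.0 CPM in saline dorsal libraries, and differed by -0.72 (SE 0.16, adjusted p = 0.00188). With oxycodone it measured 54.7, 69.8 and 74.3 CPM against 46.0, 46.5, 56.1, 49.2 and 39.3 CPM and differed by -0.53 (SE 0.10, adjusted p = 0.000415). In each treatment only ventral replicate 6 overlapped the dorsal range. Neo1 measured 210, 229 and 240 CPM in saline ventral and 143, 148, 171, 148 and 157 CPM in saline dorsal libraries. The oxycodone libraries gave 200, 216 and 228 CPM in ventral and 150, 170, 146, 166 and 167 CPM in dorsal libraries. All 12 ventral libraries, both numbered 6 included, lay above all 10 dorsal ones, and the difference was -0.55 (SE 0.07, adjusted p = 1.39e-05) and -0.44 (SE 0.07, adjusted p = 9.56e-05).

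Unc5b, an UNC5 receptor also found on vessels, went the other way. It measured 8.43, 14.9 and 18.5 CPM in saline ventral and 24.3, 26.6, 24.0, 21.5 and 29.9 CPM in saline dorsal libraries, which did not overlap, and was higher in dorsal striatum by 0.81 (SE 0.17, adjusted p = 0.0013). With oxycodone the ventral values, 13.5, 17.1 and 30.2 CPM, overlapped the dorsal 34.2, 27.9, 20.2, 16.7 and 22.5 CPM, and the difference of 0.29 (SE 0.24) was not called (adjusted p = 0.333). Of 5 endothelial markers, 3 were called higher in dorsal striatum with saline. With oxycodone 3 were called higher and 1 lower, and 3 and 0 without ventral replicate 6. Their summed level ran from 198 to 342 CPM in the 10 ventral and from 295 to 445 CPM in the 10 dorsal libraries, and none was at 0. Ventral replicate 6 gave a sum of 349 CPM with saline, where Unc5b was at 8.43 CPM. With oxycodone it gave 351 CPM, where Unc5b was at 30.2 CPM. The part of endothelial cells in the Unc5b result was not tested. Dcc, the attractive netrin-1 receptor, and Unc5a were called in neither treatment, with differences from -0.13 to 0.06.

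Among the ephrin ligands, Efna5 was the one called under both treatments. Efna5, an ephrin-A that binds EphA receptors and Ephb2, was low in all libraries, at 3.86, 6.53 and 9.85 CPM in saline ventral and 2.20, 1.75, 1.93, 2.22 and 2.00 CPM in saline dorsal ones. With oxycodone it measured 2.91, 5.42 and 6.34 CPM in ventral and 1.55, 2.85, 3.36, 2.78 and 3.27 CPM in dorsal libraries. The saline groups were disjoint, and with oxycodone only ventral replicate 6, at 2.91 CPM, overlapped. Efna5 was 3.23-fold higher in ventral striatum with saline (log2 -1.69, SE 0.27, adjusted p = 0.000128) and 1.82-fold higher with oxycodone (-0.87, SE 0.28, adjusted p = 0.0175). Without saline ventral replicate 6 the saline difference was -1.52 (SE 0.28, adjusted p = 0.000212 by edgeR).

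Of the other ephrins, Efnb1 was called with saline alone, lower in dorsal striatum (-0.67, SE 0.22, adjusted p = 0.0203), and lost the call without saline ventral replicate 6 (adjusted p = 0.0538). Efna2 (-1.24, SE 0.36, adjusted p = 0.00891) and Efnb2 (0.39, SE 0.11, adjusted p = 0.00967) were called with oxycodone alone. Efna2 was low, at 2.26 to 3.82 CPM in oxycodone ventral and 0.513 to 2.07 CPM in oxycodone dorsal libraries. Its saline dorsal libraries spread from 0.429 to 5.35 CPM. The Efna2 call was kept in 7 of 8 alternatives other than left-out libraries. Whether a regional difference itself changed with treatment, for these and for Slit3, Unc5b and Ntng2, is the contrast given at the end, in which none passed. Efna1, Efna3 and Efnb3 were called in neither treatment with all libraries, and Efna1 was called with oxycodone without dorsal replicate 4 (adjusted p = 0.0369). Efna3 measured 16.0, 19.8 and 29.0 CPM in saline ventral and 24.5, 31.4, 28.6, 20.9 and 26.8 CPM in saline dorsal libraries (0.35, SE 0.16, adjusted p = 0.0796), and without saline ventral replicate 6 it was higher in dorsal striatum (0.49, SE 0.14, adjusted p = 0.00582).

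Epha5, an EphA receptor for ephrin-A ligands including Efna5, showed the lowest p of the guidance genes with saline. It measured 91.6, 114 and 128 CPM in saline ventral and 48.4, 42.8, 54.0, 53.9 and 41.0 CPM in saline dorsal libraries. In oxycodone libraries the values were 55.4, 106 and 130 CPM in ventral and 59.1, 52.0, 41.6, 53.4 and 43.2 CPM in dorsal libraries. The saline groups were disjoint by a wide margin, and with oxycodone the 55.4 CPM of ventral replicate 6 alone entered the dorsal range. Epha5 was 2.33-fold higher in ventral striatum with saline (log2 -1.22, SE 0.10, adjusted p = 4.37e-07) and 2.04-fold higher with oxycodone (-1.03, SE 0.18, adjusted p = 0.000463).

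Epha4 was higher in dorsal striatum. It measured 223, 253 and 445 CPM in saline ventral and 362, 368, 397, 368 and 416 CPM in saline dorsal libraries, and differed by 0.45 (SE 0.16, adjusted p = 0.0289). With oxycodone it measured 239, 274 and 393 CPM in ventral and 419, 344, 412, 404 and 375 CPM in dorsal libraries, and differed by 0.42 (SE 0.11, adjusted p = 0.00595). The highest ventral value was replicate 6 in both treatments. The saline call was kept in 5 of 11 fits that leave out 1 library. Without the sixth libraries the groups were disjoint and the differences were 0.66 (SE 0.07, adjusted p = 9.94e-07) and 0.55 (SE 0.08, adjusted p = 3.83e-05). The remaining 7 EphA receptors, Epha1, Epha2, Epha3, Epha6, Epha7, Epha8 and Epha10, were called in neither treatment with all libraries, with Epha6 and Epha7 within 0.11 of no difference. Without oxycodone ventral replicate 6, Epha10 was lower in dorsal striatum with oxycodone (-0.46, adjusted p = 0.0468). With saline Epha10 was called in 3 of 11 fits that leave out 1 library, and Epha3 in 1, without dorsal replicate 1 (adjusted p = 0.00779).

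Ephb6 and Ephb1 were the EphB receptors that stood higher in dorsal striatum. Ephb6 measured 44.4, 49.2, 46.3, 49.3, 48.2 and 200 CPM in saline ventral replicates 1 to 6 and 185, 201, 131, 139 and 161 CPM in saline dorsal libraries. Under oxycodone it measured 58.6, 53.8, 48.0, 44.0, 84.6 and 105 CPM in ventral and 189, 172, 156, 142 and 155 CPM in dorsal libraries. Ventral replicate 6 was the highest of its group both times, and with oxycodone it still lay below every dorsal library. The difference was 1.16 (SE 0.42, adjusted p = 0.0456) with saline, a call kept in 2 of 11 fits that leave out 1 library, and 1.30 (SE 0.20, adjusted p = 0.00023) with oxycodone, kept in 11 of 11. Without the sixth libraries it was 3.50-fold higher (1.81, SE 0.11, adjusted p = 8.54e-10) and 2.82-fold higher (adjusted p = 1.7e-06) in dorsal striatum.

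Ephb1, a receptor tyrosine kinase for ephrin-B ligands, measured 43.8, 73.7 and 80.6 CPM in saline ventral and 143, 123, 142, 124 and 127 CPM in saline dorsal libraries. In oxycodone libraries it measured 55.7, 73.2 and 109 CPM ventrally and 121, 121, 129, 132 and 118 CPM dorsally. All dorsal libraries lay above all ventral ones in both treatments, with the difference at 0.93 (SE 0.13, adjusted p = 4.03e-05) and 0.67 (SE 0.14, adjusted p = 0.0012). Ephb2, which binds ephrin-B ligands and Efna5, measured 11.9, 16.8 and 30.4 CPM in saline ventral and 7.23, 18.1, 6.29, 9.39 and 9.52 CPM in saline dorsal libraries. After oxycodone it measured 8.68, 12.4 and 15.1 CPM in ventral and 5.54, 9.17, 8.80, 9.33 and 11.0 CPM in dorsal libraries. Groups overlapped in both, and its lower level in dorsal striatum (-0.80, SE 0.29, adjusted p = 0.0357, and -0.49, SE 0.19, adjusted p = 0.0469) was called in 4 and 3 of 11 fits that leave out 1 library. The saline call of Ephb2 was lost without ventral replicate 6 (-0.56, SE 0.24, adjusted p = 0.0655 by edgeR). Ephb3 and Ephb4 were called in neither treatment with all libraries. With oxycodone Ephb3 was lower in dorsal striatum without ventral replicate 6 (-0.59, adjusted p = 0.036), and Ephb4 was called without dorsal replicate 1 (adjusted p = 0.0182).

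**Figure D3:**
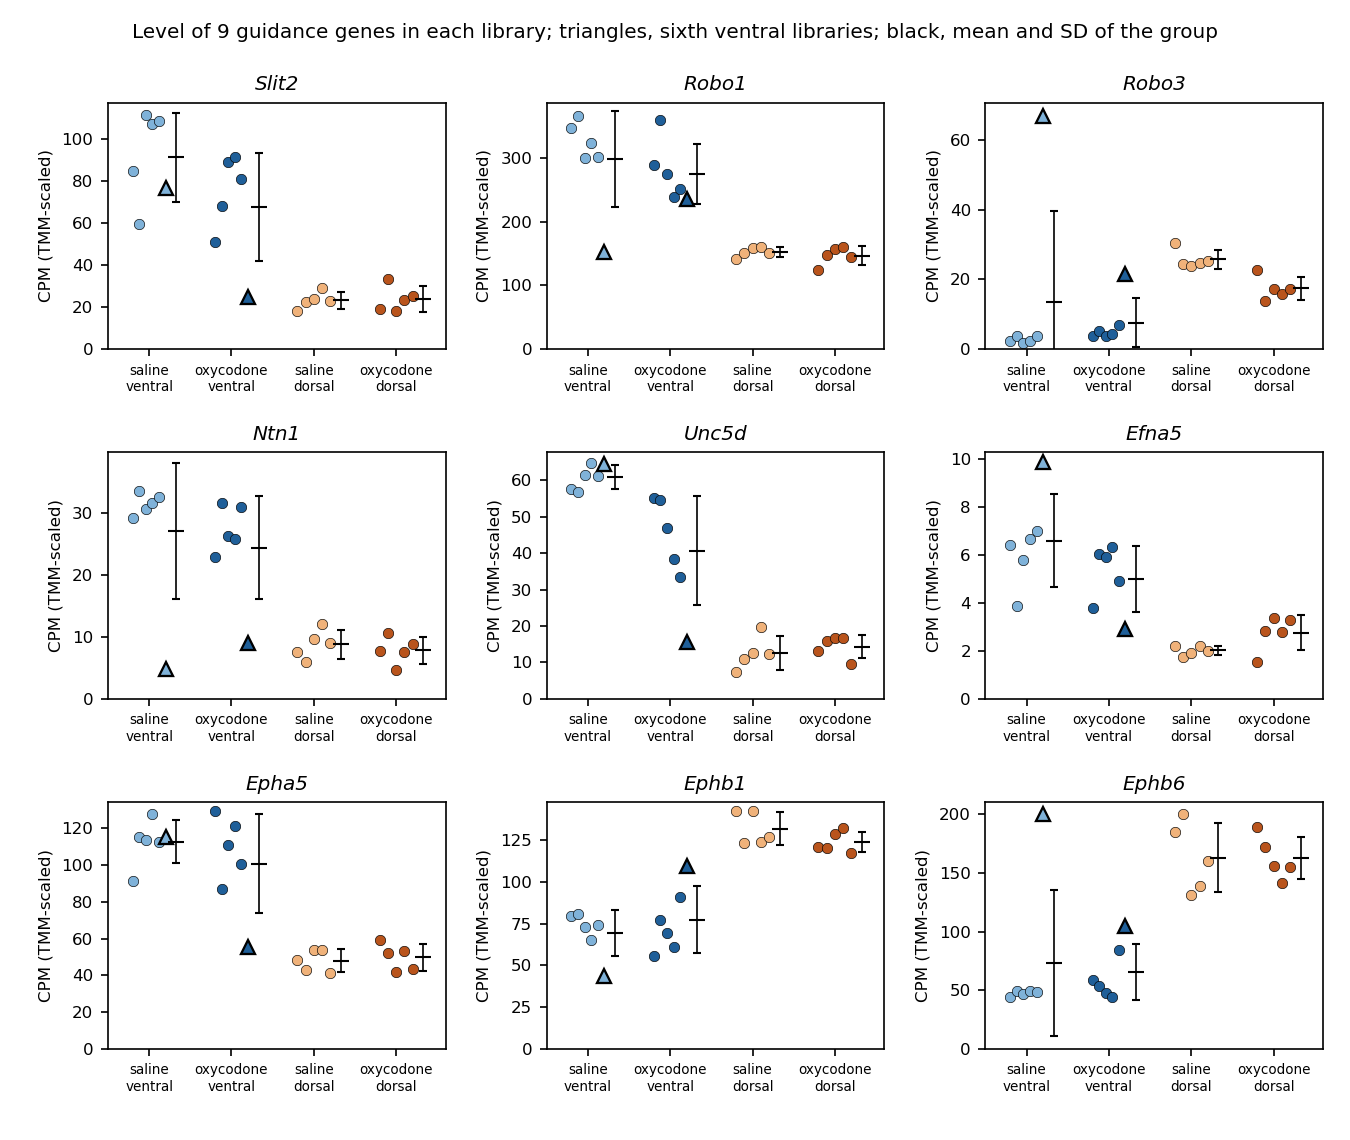
Each panel gives 1 guidance gene in CPM from 0 upward; circles are libraries, triangles the ventral libraries numbered 6, and the black mark with bars is the group mean with its SD over all libraries. Slit2, Robo1, Ntn1, Unc5d, Efna5 and Epha5 stand higher in ventral and Robo3, Ephb1 and Ephb6 higher in dorsal circles, and most triangles of the oxycodone group lie at or near the dorsal level.

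The promoters of 5 genes with a regional difference under both treatments are shown because their transcripts moved in opposite directions: Slit2, Efna5 and Epha5 higher in ventral striatum, Ephb1 and Ephb6 higher in dorsal striatum. Each is the 250 bases before the RefSeq start on GRCm38.p6, 5′ to 3′ on the gene's strand. Capitals mark TATAAA, the motif of a TATA box, GGGCGG, that of a GC box, or CCAAT, that of a CCAAT box, on either strand. A match on the opposite strand reads CCGCCC for a GC box or ATTGG for a CCAAT box. The Slit2 window lies at chr5:47982905-47983154, plus strand.
Slit2: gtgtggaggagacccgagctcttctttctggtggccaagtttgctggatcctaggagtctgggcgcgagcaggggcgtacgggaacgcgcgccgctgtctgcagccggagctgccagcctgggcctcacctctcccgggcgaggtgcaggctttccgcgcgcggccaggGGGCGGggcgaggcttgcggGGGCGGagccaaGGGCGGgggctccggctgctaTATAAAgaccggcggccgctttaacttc
The Efna5 window lies at chr17:62881318-62881567, minus strand.
Efna5: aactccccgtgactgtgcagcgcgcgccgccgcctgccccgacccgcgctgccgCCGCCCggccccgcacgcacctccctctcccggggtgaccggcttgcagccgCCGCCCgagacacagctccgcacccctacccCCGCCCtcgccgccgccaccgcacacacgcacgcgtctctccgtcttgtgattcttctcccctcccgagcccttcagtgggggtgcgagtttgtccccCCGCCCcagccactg
The Epha5 window lies at chr5:84417383-84417632, minus strand.
Epha5: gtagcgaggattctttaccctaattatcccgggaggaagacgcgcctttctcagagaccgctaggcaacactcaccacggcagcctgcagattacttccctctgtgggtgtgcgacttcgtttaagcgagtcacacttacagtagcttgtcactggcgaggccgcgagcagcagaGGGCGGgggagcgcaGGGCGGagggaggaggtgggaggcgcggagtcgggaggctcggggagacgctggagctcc
The Ephb1 window lies at chr9:102354694-102354943, minus strand.
Ephb1: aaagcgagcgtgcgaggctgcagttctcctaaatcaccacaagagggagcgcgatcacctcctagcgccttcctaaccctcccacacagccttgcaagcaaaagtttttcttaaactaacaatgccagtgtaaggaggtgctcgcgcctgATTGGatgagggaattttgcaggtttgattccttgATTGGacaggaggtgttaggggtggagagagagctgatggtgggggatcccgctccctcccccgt
The Ephb6 window lies at chr6:41605261-41605510, plus strand.
Ephb6: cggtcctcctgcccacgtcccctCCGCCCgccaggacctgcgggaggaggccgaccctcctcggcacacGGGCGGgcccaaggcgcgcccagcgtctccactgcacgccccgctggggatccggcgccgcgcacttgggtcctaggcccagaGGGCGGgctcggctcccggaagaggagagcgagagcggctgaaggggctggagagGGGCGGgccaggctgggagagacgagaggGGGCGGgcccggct

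GGGCGG, the letters of a GC box, occur 3 times in the Slit2, 4 times in the Efna5, 2 times in the Epha5 and 5 times in the Ephb6 window, and not in that of Ephb1. The Ephb1 window instead holds 2 CCAAT motifs on the opposite strand, whose first bases lie 100 and 65 bases before the start. Slit2 has a TATAAA whose first base lies 28 bases before its RefSeq start. GENCODE M21 starts Slit2 at chr5:47983138, inside this window, with 17 exon bases in it, so the distance depends on the start used. It starts Ephb6 at chr6:41605482, also inside the window, with 29 exon bases in it. The Ephb6 GGGCGG whose first base lies 14 bases before the RefSeq start is within those exon bases. Windows in both directional groups thus hold GC boxes. RefSeq windows were found for 34 of the 39 genes, 1 or more each, and the first window of each was used for counts. Those of Ntng1, Ntng2, Unc5c and Epha10 lie wholly within GENCODE M21 exons (250 bases), and those of Slit3, Efna1 and Ntn3 hold 232, 191 and 144 exon bases. The first Robo2 window, from chr16:75447294, lies outside the GENCODE M21 gene, which spans chr16:73891839-74411825. GGGCGG was in 25 of these 34 against 32.7% of all windows, CCAAT in 13 against 33.8%, TATAAA in 2 against 12.4%, CANNTG in 14 against 66.2% and TGACGTCA in 1 against 1.55%. The guidance genes' windows had a median of 18 CpG dinucleotides, against 6 over all windows, and a median GC content of 65.2% against 52.4%. All windows number 32851 for 27025 genes, some with several, while each guidance gene was counted by its first window only. The shares and medians are therefore not counted alike. A match describes these letters in this window only.

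Leaving out the sixth ventral libraries raised the count of regional calls to 19 with saline (51.4%, all genes 50.7%) and to 21 with oxycodone (56.8%, all genes 47.5%). With saline 8 were higher in dorsal (all genes 27.3%) and 11 in ventral striatum (all genes 23.4%), and with oxycodone 6 (all genes 24.9%) and 15 (all genes 22.6%). Disjoint groups numbered 16 with saline (all genes 39.3%), 6 with dorsal above (all genes 19.5%) and 10 with dorsal below (all genes 19.8%). With oxycodone they numbered 13 (all genes 33.6%), 4 above (all genes 17.2%) and 9 below (all genes 16.3%). In both treatments 16 were called in the same direction, 5 higher in dorsal striatum (Robo3, Ephb6, Ephb1, Epha4, Robo2) and 11 higher in ventral striatum (Unc5d, Slit2, Slit1, Ntn1, Efna5, Epha5, Robo1, Ntng1, Ntng2, Unc5c, Neo1). These 16 are 84.2% of the saline and 76.2% of the oxycodone calls, beside 79.4% and 83.5% over all genes. Over the 20 libraries the 10 dorsal and 10 ventral ranges were disjoint for 12 of 37 guidance genes, 4 with dorsal above (all genes 11.9%) and 8 with dorsal below (all genes 10.9%), which is 32.4% against 22.9% of all genes.

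**Figure D4:**
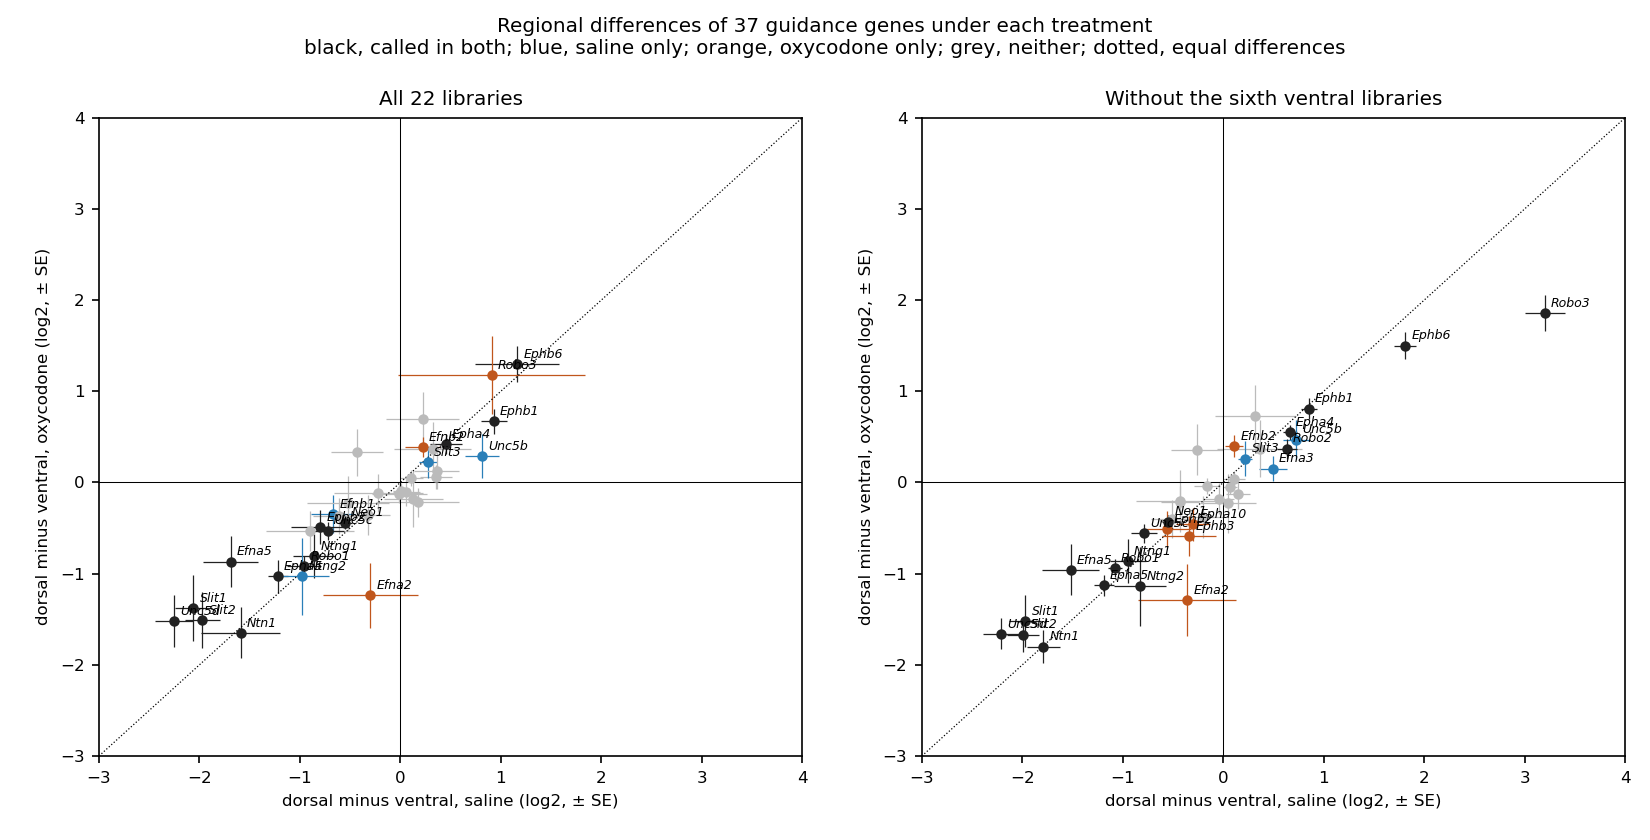
Each point is 1 of 37 guidance genes, placed by its log2 difference of dorsal minus ventral striatum with saline (horizontal) and with oxycodone (vertical), with standard errors. Slit1, Slit2, Unc5d, Ntn1, Efna5 and Epha5 lie at the lower left in both panels, and Robo3 moves from 0.91 and 1.18 with all libraries to 3.20 and 1.86 without the sixth ventral libraries.

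Oxycodone ventral replicate 6, left out of that fit, was then placed between the 10 other ventral and the 10 dorsal libraries on the log2 scale. It lay nearer to the dorsal mean for 13 of the 16 genes called under both treatments (81.2%), against 30.4% of all genes so called. Robo3 at 21.7 CPM, Slit2 at 24.9, Ntn1 at 8.94, Unc5d at 15.6, Epha5 at 55.4, Epha4 at 393 and Efna5 at 2.91 CPM were among those within the dorsal range of their gene. Robo1, Neo1 and Ntng1 lay nearer to the ventral mean, at 235, 203 and 13.6 CPM. This library shares a sequencing lane with ventral libraries and carries dorsal levels of the regional markers. Whether tissue or sequencing set these levels was not tested. Saline ventral replicate 6 lay nearer to the dorsal mean for 8 of the 16 (against 22.4% of all genes so called). Among them were Ephb6 at 200 CPM and Robo3 at 66.8 CPM, the latter above the dorsal range of 13.8 to 30.3 CPM. Slit1 at 165, Unc5d at 64.4 and Epha5 at 115 CPM lay nearer to the ventral mean. As this library was below both regions for both regional marker lists, nearness to a mean does not place it in a region.

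Other cell markers moved with region and stand beside these counts. Summed D1 medium spiny neuron markers gave 505 to 656 CPM in the 10 ventral and 850 to 981 in the 10 dorsal libraries. D2 sums gave 1190 to 1710 and 1780 to 2390 CPM, and microglia sums 170 to 238 and 243 to 312 CPM. Without the sixth ventral libraries, 3 of 7 D1 markers were higher and 1 lower dorsally with saline, 2 and 2 with oxycodone. Of 5 D2 markers tested, 4 and 3 were higher dorsally. Of 6 oligodendrocyte markers, 6 were higher in dorsal striatum with saline and 4 with oxycodone (6 and 5 without the sixth ventral libraries), their summed level running from 1190 to 2450 CPM in the 10 ventral and from 2620 to 3940 CPM in the 10 dorsal libraries. All 6 markers of choroid plexus and ependyma were higher in dorsal striatum with saline and 0 were called with oxycodone. Without the sixth ventral libraries 5 of 5 tested were higher with saline and 3 of 4 tested with oxycodone. Their sums were 18.7 to 53.4 CPM in the 10 ventral and 68.3 to 3560 CPM in the 10 dorsal libraries, with oxycodone ventral replicate 6 at 1780 CPM. Of 7 glutamatergic and cortical markers, 4 were lower in dorsal striatum with saline and 3 with oxycodone. Without the sixth ventral libraries 2 of 6 tested were lower and 1 higher with saline, and 3 of 7 lower with oxycodone. Their sums were 67.7 to 484 CPM in the 10 ventral and 52.0 to 178 CPM in the 10 dorsal libraries, with saline ventral replicate 6 at 1410 CPM. At most 1 marker was at 0 counts in any of the 20 libraries for the choroid and the glutamatergic lists, and 0 for the oligodendrocyte list. Their part in the regional differences was not tested. In bulk tissue, fewer cells of a type and less RNA per cell cannot be told apart.

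The other ligands, co-receptors and intracellular partners of these families formed a list of 72 genes, all in the table. With saline 42 of 70 tested were called between regions (60.0%, against the 45.8% of all genes), 16 higher in dorsal and 26 higher in ventral striatum. With oxycodone 39 of 70 were called (55.7%, against 47.2%), 11 and 28. Without the sixth ventral libraries 44 of 70 were called with saline (62.9%, all genes 50.7%) and 40 of 70 with oxycodone (57.1%, all genes 47.5%). The differences were not larger than those of all genes. With all libraries their median size without regard to sign was 0.37 against 0.41 with saline and 0.34 against 0.38 with oxycodone. Enah, the actin regulator Mena that acts downstream of guidance receptors, had the lowest p with saline: 146 ± 22.7 CPM (SD, n = 6) in ventral and 44.4 ± 4.84 (n = 5) in dorsal libraries, log2 -1.71 (SE 0.12, adjusted p = 7.54e-08). Sos1, a Ras and Rac exchange factor recruited to Robo, was lower in dorsal striatum by 1.34 (-1.34, SE 0.12, adjusted p = 8.53e-07) and by 1.25 with oxycodone (-1.25, SE 0.08, adjusted p = 1.41e-08). Ngef, the exchange factor ephexin that binds Epha4, was higher in dorsal striatum, at 537 ± 22.4 CPM (n = 5) against 329 ± 29.1 (n = 6) with saline (0.71, SE 0.07, adjusted p = 2.33e-06). Sdc3, a heparan sulfate proteoglycan, was lower dorsally with saline (-1.53, SE 0.15, adjusted p = 1.37e-06). With oxycodone the lowest p besides Sos1 fell to Acp1 (1.36, SE 0.13, adjusted p = 5.39e-07), Pak3 (-1.13, SE 0.11, adjusted p = 7.8e-07) and Rock1 (-0.67, SE 0.07, adjusted p = 2.43e-06), a phosphatase and 2 kinases. Without the sixth ventral libraries Enah had the lowest p with saline (-1.77, SE 0.09, adjusted p = 9.96e-11) and with oxycodone (-1.55, SE 0.10, adjusted p = 3e-09 by edgeR).

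The study's main question was whether oxycodone self-administration changed transcript levels. In ventral striatum 0 of 37 guidance genes were called by edgeR, and percent called over all genes was 0.0%. DESeq2 and limma-voom called 0 guidance genes as well, while over all genes DESeq2 called 38 of 14051 and limma-voom 61 of 14116. At an unadjusted p under 0.05 stood 2 guidance genes, against 9.13% of all genes. Log2 changes were positive for 16 and negative for 21, with a median of -0.07 against 0.00 over all genes. Groups were disjoint for 1 guidance gene (all genes 0.744%), with oxycodone below (all genes 0.496%).

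That gene was Unc5d, with the lowest p of the group: 57.6, 56.8, 61.4, 64.7, 61.1 and 64.4 CPM in saline and 55.0, 54.7, 46.8, 38.5, 33.5 and 15.6 CPM in oxycodone replicates 1 to 6. Every oxycodone library lay below every saline one, with replicate 6 the lowest. The log2 change was -0.57 (SE 0.22, unadjusted p = 0.0245, adjusted p = 0.506 by edgeR), and -0.39 (SE 0.12, adjusted p = 0.298) without the sixth libraries, where the groups were still disjoint (all genes 2.25%, with oxycodone below 1.39%). Next in order of p, Ephb2 had -0.53 (SE 0.22, adjusted p = 0.514), with saline replicate 6 the highest library at 30.4 CPM, and -0.25 (adjusted p = 0.585) without the sixth libraries. Epha3, a receptor for ephrin-A ligands, measured 15.9, 19.1 and 27.5 CPM in saline and 10.8, 14.9 and 24.5 CPM in oxycodone libraries (-0.36, SE 0.18, adjusted p = 0.574). Unc5b had 0.46 (SE 0.23, adjusted p = 0.574), with the highest values in oxycodone replicates 5 and 6 at 26.7 and 30.2 CPM. Except for Unc5d these groups overlapped. Without the sixth libraries the guidance genes called were again 0 (all genes 0.0%), with 3 at an unadjusted p under 0.05 (all genes 10.4%).

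In dorsal striatum 0 of 37 guidance genes were called by edgeR, DESeq2 or limma-voom, where edgeR called 0.206% of all genes. Over all genes DESeq2 called 86 of 14589 and limma-voom 32 of 14595. At an unadjusted p under 0.05 stood 3, against 5.64% of all genes, and the median log2 change was 0.01 against -0.01. Robo3 had the lowest p: saline libraries held 30.3, 24.5, 23.9, 24.7 and 25.3 CPM and oxycodone libraries 22.7, 13.8, 17.4, 15.8 and 17.3 CPM. Every oxycodone library lay below every saline one (disjoint groups in 1 guidance gene and 1.29% of all genes, with oxycodone below in 0.452%). The log2 change was -0.56 (SE 0.17, unadjusted p = 0.00212, adjusted p = 0.289 by edgeR), with adjusted p from 0.0868 to 0.65 over the alternatives, DESeq2 giving the lowest.

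Slit1 measured 39.9, 21.1, 30.7, 34.5 and 32.1 CPM in saline and 38.1, 54.3, 46.9, 35.3 and 39.7 CPM in oxycodone dorsal libraries, where the groups overlapped through saline replicate 1 (0.44, SE 0.15, unadjusted p = 0.00804 by edgeR, not called after adjustment). Efna3 measured 24.5, 31.4, 28.6, 20.9 and 26.8 CPM in saline and 23.2, 18.7, 22.2, 18.4 and 15.4 CPM in oxycodone libraries (-0.43, SE 0.17, adjusted p = 0.629). Efnb3 measured 40.5, 60.7, 32.9, 32.9 and 45.3 CPM in saline and 43.3, 37.6, 33.3, 31.9 and 23.2 CPM in oxycodone libraries (-0.32, SE 0.17, adjusted p = 0.913). These 3 sets of values overlapped between treatments. Of the partner genes 0 were called in either region. With all libraries the lowest p among them was that of Dapk1, a kinase that binds UNC5 receptors, in both regions. It measured 277 ± 3.17 CPM (SD) in saline and 323 ± 29.9 in oxycodone ventral libraries (0.24, SE 0.07, adjusted p = 0.393, n = 6 each). In dorsal libraries it measured 265 ± 25.5 against 315 ± 13.0 (0.25, SE 0.07, adjusted p = 0.28, n = 5 each). Without the sixth libraries Grip1 had the lowest ventral p (-0.20, SE 0.06, adjusted p = 0.265 by edgeR), ahead of Dapk1 (0.23, SE 0.07, adjusted p = 0.327).

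**Figure D5:**
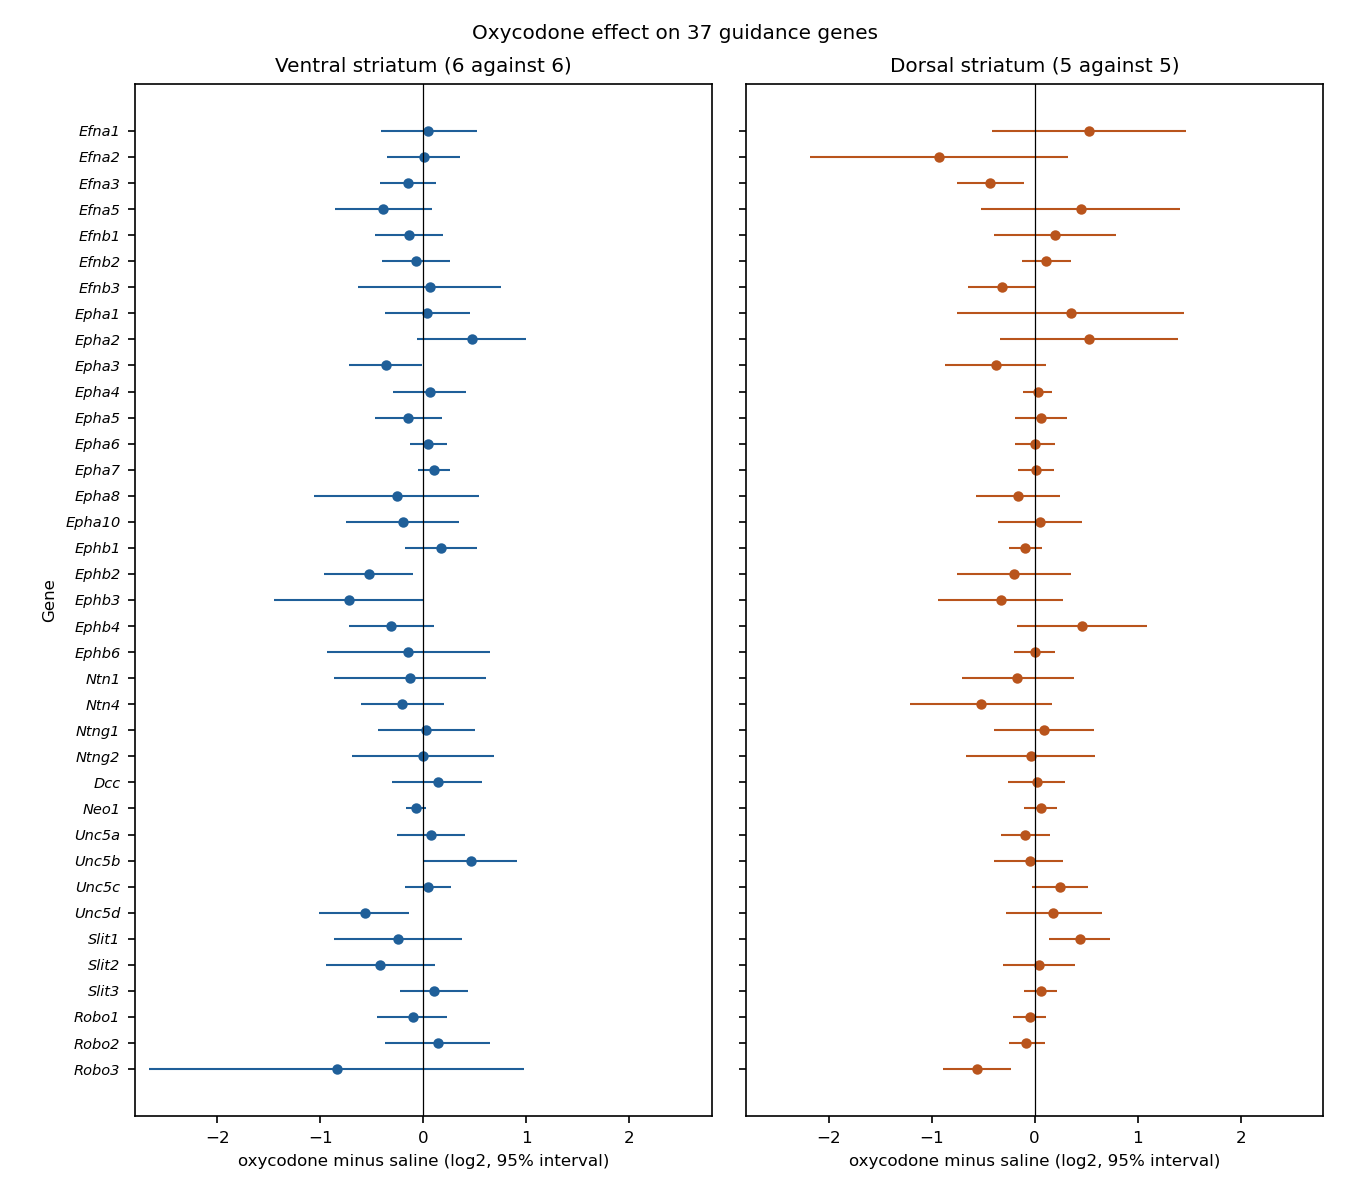
For 37 guidance genes, dots give the log2 change with oxycodone in ventral (left) and dorsal (right) striatum. Lines give an approximate 95% interval from the SE with a normal quantile, which is too narrow for so few libraries. Most dots lie within 0.5 of 0; the widest line is that of Robo3 in ventral striatum, whose libraries numbered 6 measured 66.8 and 21.7 CPM.

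Misses of the threshold do not show equal levels, and approximate intervals give a rough guide to what these libraries allow. They were taken from the SE with a normal quantile, which with so few libraries makes them narrower than true 95% intervals. In ventral striatum that of Unc5b ran from 0.01 to 0.91, although its unadjusted p was 0.0693 by edgeR. For Epha7, Neo1 and Epha6 the approximate interval in ventral striatum ran from -0.05 to 0.26, from -0.17 to 0.03 and from -0.13 to 0.23. For Slit2 it ran from -0.95 to 0.11, and for Robo3 from -2.66 to 0.98. In dorsal striatum the interval for Epha4 was -0.11 to 0.17 and for Robo1 -0.21 to 0.11, while that for Efna2 ran from -2.18 to 0.32.

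The last comparison asked whether the oxycodone change differed between regions, over all 22 libraries. By edgeR 0 of 37 guidance genes were called, and over all genes 0.0%. DESeq2 and limma-voom called 0 guidance genes and 0 genes in all. At an unadjusted p under 0.05 stood 2 (all genes 4.51%), and the lowest adjusted p by edgeR was 0.981. The 4 lowest p belonged to Efna5 at 0.84 (SE 0.37), Ephb4 at 0.78 (SE 0.38), Unc5d at 0.75 (SE 0.35) and Slit1 at 0.70 (SE 0.41), positive where the change with oxycodone was more upward in dorsal than in ventral striatum. For Ephb4, an EphB receptor known from veins, ventral medians were 6.07 CPM with saline and 6.00 with oxycodone, and dorsal medians 5.50 and 8.14 CPM. Without the sixth libraries these 4 contrasts were 0.56, 0.63, 0.55 and 0.44.

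Robo3 had the lowest p once the sixth libraries were left out. Saline and oxycodone ventral replicates 1 to 5 ran from 1.74 to 3.88 and from 3.69 to 6.94 CPM (log2 change 0.76, SE 0.25, adjusted p = 0.326), and the dorsal change was -0.56. The contrast was -1.34 (SE 0.29, unadjusted p = 7.51e-05 by edgeR), and its adjusted p of 0.297 was the lowest of any gene in that fit. In that fit 0 guidance genes were called (all genes 0.0%), with 2 at an unadjusted p under 0.05 (all genes 4.1%). With all 22 libraries the contrast was 0.28 (SE 1.09, adjusted p = 0.992), so its direction rests on the libraries numbered 6, and in neither fit did it pass.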

How the data were processed

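Total RNA was sequenced with a stranded kit after removal of ribosomal RNA, per the labels' protocols. The authors deposited 1 table of raw read counts for 23119 genes and 22 libraries. The submitters' processing notes name CASAVA 1.8.2, STAR 2.3 and featureCounts, with the builds mm10, GRCm38 and mm9. Which build gave the counts, the strand setting and the treatment of reads with several matches are not given in the sources used here. Of the gene identifiers, 96.4% matched GENCODE M21 (GRCm38). Ntn3 was not analysed here.

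Genes passing filterByExpr were tested with edgeR 4.0.16 (R 4.3.3; TMM factors, robust quasi-likelihood), with Benjamini-Hochberg adjustment over all genes tested and a threshold of 0.05. CPM used TMM library sizes over all 22 libraries, and log2 CPM a prior count of 2. Comparisons were oxycodone against saline in each region (6 against 6 ventral, 5 against 5 dorsal), dorsal against ventral striatum within each treatment, and the difference of the oxycodone effects. Alternatives were DESeq2 1.42.0, limma-voom 3.58.1, other scalings, no filter, lane or title suffix as covariates, a block, summed libraries and left-out libraries. The scripts were tested on simulated data. The title suffix P, on 5 dorsal libraries, has no stated meaning. Dorsal replicates 2 and 3 of each treatment share a title number, 1 of them with the suffix, and were summed in an alternative that leaves 4 libraries a group.

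The gene names follow family membership, but the group, the lists and the tests were chosen with earlier results of these data known. Values by library are given for members called in both regional fits (up to 12, by size in saline), the 4 lowest p in each oxycodone comparison, and the highest of each family per length. Of the partner genes, up to 4 with the lowest p were named in a comparison. Partner and marker lists were fixed by name.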

Additional observations from a re-analysis of the deposited data

Results flagged for a closer look

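Of 92 groups of libraries examined gene by gene, 18 held 1 library whose gap to the next was large for the group's range (Dixon's criterion at 95%). Chance flags about 1 in 20 groups of normal values. These groups repeat the same libraries for each gene and are not independent, so the count cannot be set against that rate.

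Saline ventral replicate 6 accounted for 9 of them. It was high for Robo3 at 66.8 CPM (other 5 libraries 1.74 to 3.88), Ephb6 at 200 CPM (44.4 to 49.3), Epha4 at 445 CPM (223 to 281), Robo2 at 465 CPM (186 to 261) and Ephb2 at 30.4 CPM (11.9 to 17.1). It was low for Ntn1 at 4.83 CPM (29.1 to 33.5), Robo1 at 153 CPM (301 to 365), Ntng1 at 10.5 CPM (17.2 to 21.2) and Efnb3 at 5.77 CPM (40.7 to 51.6).

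Oxycodone ventral replicate 6 was high for Robo3 at 21.7 CPM (3.69 to 6.94) and low for Unc5c at 54.7 CPM (67.6 to 74.3). Oxycodone ventral replicate 1 was high for Ntng1 at 34.0 CPM (13.6 to 15.6) and Epha3 at 24.5 CPM (10.8 to 15.7), and low for Slit3 at 71.8 CPM (145 to 170).

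In dorsal striatum saline replicate 1 was high for Robo3 at 30.3 CPM (other 4 libraries 23.9 to 25.3) and Epha3 at 28.1 CPM (12.4 to 14.7), and saline replicate 2 for Ephb2 at 18.1 CPM (6.29 to 9.52). Oxycodone replicate 1 was low for Epha3 at 6.37 CPM (13.3 to 14.5).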

How the results depend on the processing

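No value of a gene named by rule in its comparison changed direction under the alternatives. Other genes with small uncalled differences did. With saline the regional difference of Efnb3 went from 0.17 to as low as -0.13, and that of Ntn4 from 0.13 to -0.06. Without the sixth ventral libraries the uncalled ventral change of Robo3 went from -0.84 to 0.76. Among others, those of Ephb6 (-0.15 to 0.29), Epha10 (-0.20 to 0.20) and Dcc (0.14 to -0.11) also changed sign. Regional counts ran from 16 to 24 guidance genes with saline (limma-voom the highest) and from 15 to 20 with oxycodone. Leaving out 1 library gave 15 to 19 and 15 to 21. The 3 oxycodone comparisons gave 0 in every alternative. Of 720 alternative values for the genes named by rule in each comparison, 34 lost their call, all of them of Ephb6 with saline or Ephb2. The calls of Epha4, Efnb1 and Slit3 with saline and of Robo3 with oxycodone, outside that count, were lost in some fits without 1 library, as given beside them. Genes that gained a call without 1 library are named there too. Title numbers recur across regions but correlations of their deviations ran from -0.076 to 0.319, and whether they name the same mice is not stated, so the libraries were not treated as pairs. With the replicate block 17 guidance genes were called with saline, 20 with oxycodone and 0 for the difference, against 18, 19 and 0 in the same libraries without it. Depth limits Efna4, at 0 to 2.12 CPM, and Efna2, called with oxycodone, was also low, at 0.429 to 5.35 CPM.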
